A study of Homo sapiens with 9 samples.

Results

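The genes described here encode lysosomal enzymes, lysosomal membrane proteins and the vacuolar proton pump (V-ATPase). They were chosen by symbol from a list of 54 genes, and all 54 were found among the 58735 genes counted. All 54 are protein-coding. RNA was sequenced from MIA PaCa-2, an established pancreatic cancer cell line that the labels give as wild-type. Cells were treated for 24 h with 0.1% DMSO as vehicle, with 1 µM compound 1, an inhibitor of TBK1 and IKKε, or with 1 µM SCH772984, an inhibitor of ERK1/2, with 3 libraries in each group. No genotype, medium or passage difference between the groups is given in the labels, and the model is a single cell line. The labels do not say that the 3 libraries of a group came from separate cultures, so p-values measure only the spread between these libraries.

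Lysosomes are the acidic organelles in which proteases, glycosidases, sulfatases and lipid hydrolases break down proteins, glycans and lipids delivered by endocytosis and autophagy. The lumen is acidified by the V-ATPase, in which the cytosolic V1 sector hydrolyses ATP and the membrane V0 sector carries protons. Many of these genes are known targets of the transcription factors TFEB, TFE3 and MITF, which bind E-box elements in their promoters and are held in the cytoplasm by phosphorylation. Pancreatic cancer cells are known for a high use of lysosomes as a source of nutrients.

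Expression is given as CPM, the counts of a gene scaled to library size with TMM factors. Library totals ranged from 9464432 to 13887859 counts, and the 3 deepest were those with SCH772984. Replicate 1 of compound 1 stood apart from the other libraries of its group, with a chi-square per degree of freedom of 11.1 and 8.29 against them, whereas those 2 differed by 2.78. Mitochondrially encoded genes took 3.33% to 3.98% of counts with DMSO and 6.23% to 7.52% with SCH772984. As a check of the treatment, 14 of 14 tested ERK output genes were lower with SCH772984, and SPRY4 went from between 225 and 236 CPM to between 1.58 and 2.75 CPM. DUSP6 went from between 2.76 and 5.57 CPM to at most 0.0842 CPM. With compound 1, 0 of these 14 genes passed an adjusted p under 0.05. Of the epithelial markers KRT8, KRT18 and KRT19 were abundant in DMSO, while EPCAM and CDH1 had no count there. With SCH772984, 3 of 5 tested epithelial genes were lower and 1 higher, and the sum of the list went from between 3592 and 3858 CPM to between 1211 and 1374 CPM. On the log2 scale, KRT18 fell by 2.40 (SE 0.06) and MUC1 rose by 2.77 ± 0.18. Leukocyte genes, which could mark other lysosome-rich cells, summed to between 2.44 and 4.51 CPM over all 9 libraries, with PTPRC and CD163 at 0, and of the 2 tested CD14 fell by 1.29 (SE 0.35) and ITGAM rose by 0.94 ± 0.39 with SCH772984. Fibroblast genes summed to between 464 and 514 CPM with DMSO and to between 1032 and 1172 CPM with SCH772984. COL1A2 made up most of these sums, at a mean of 481 CPM with DMSO and 1037 CPM with SCH772984. Of the list, 4 of 4 tested were higher, where 37.2% of all genes tested were, although THY1 was at 0 in every library. PDGFRB and COL1A1 passed the filter on low counts only through their SCH772984 libraries, so a fall could not have been called for them. PDGFRB had 0, 0 and 2 counts with DMSO and 82, 64 and 99 with SCH772984, COL1A1 had 1 to 4 counts and then 28 to 48, and COL3A1 rose by 2.67 ± 0.12. DCN and LUM reached at most 0.0830 CPM. The part of the moving marker genes in the results was not tested. In bulk RNA, fewer cells of a type and less RNA per cell cannot be told apart.

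Levels between genes were compared as CPM per kb of the gene length listed in the table, which joins the exons of all transcripts and so understates genes with long rare exons. On this scale the members spanned a wide range in DMSO, around a median of 13.0 CPM per kb. PSAP, the precursor of the saposins that present sphingolipids to their hydrolases, was highest at 307 CPM per kb. Next came the V1 subunit ATP6V1F at 116, the cathepsin CTSZ at 112, the acid lipase LIPA at 107 and the small V0 subunit ATP6V0E1 at 104 CPM per kb. The lowest member that could be tested was CLN3, a lysosomal membrane protein lost in juvenile Batten disease, at 0.0397 CPM per kb. The cathepsin CTSF had between 0 and 2 counts in every library and was not tested in any comparison. The lysosomal marker LAMP1 stood at 71.3 and LAMP2 at 43.2 CPM per kb.

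**Figure D1:**
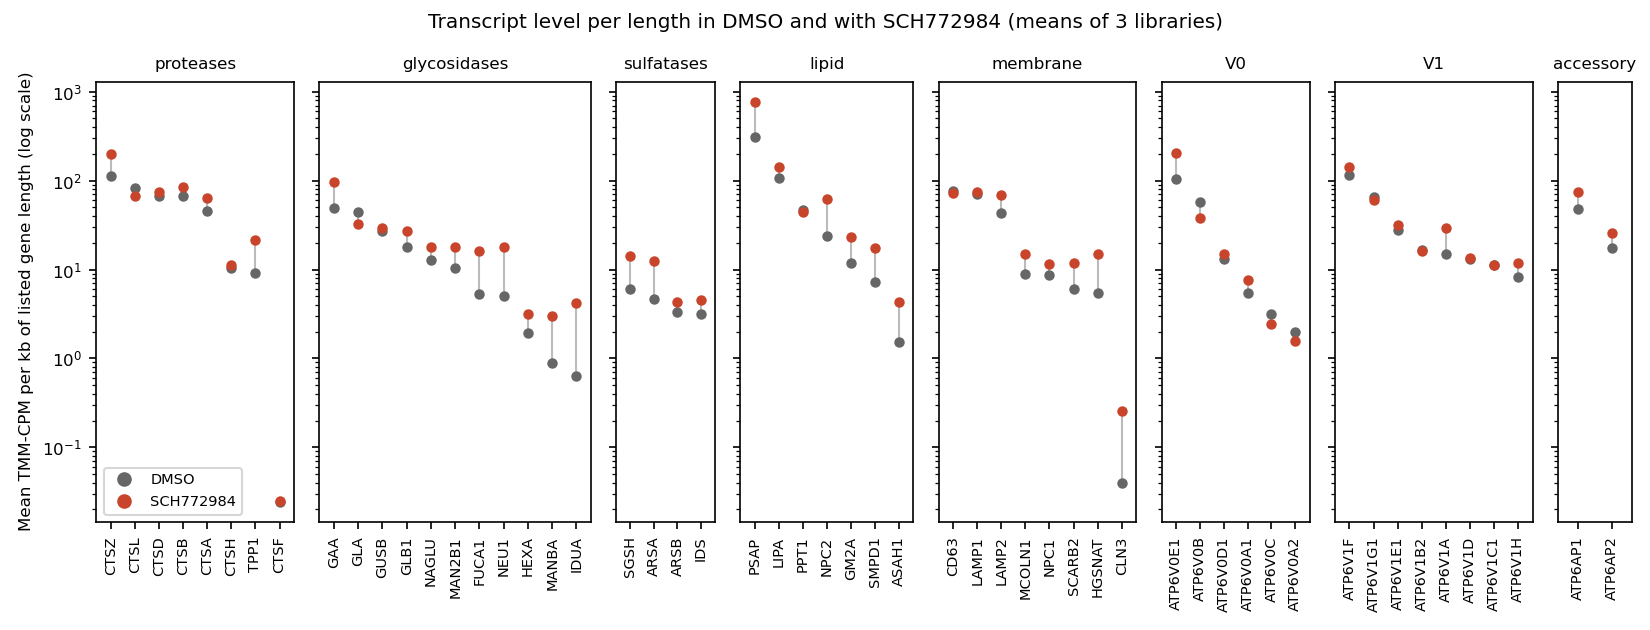
Mean TMM-CPM per kb of listed gene length (log axis) of each of the 54 members in DMSO (grey) and with SCH772984 (red), grouped by role, each point the mean of 3 libraries. PSAP was highest in both groups, and CLN3 and CTSF were lowest.

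With SCH772984, 38 of the 53 tested members rose, 4 fell and 11 did not pass the quasi-likelihood test of edgeR, with an adjusted p under 0.05 as the threshold. Over all 13834 genes tested, 37.2% were called higher and 35.5% lower. The median log2 fold change of the members was 0.50, a 1.41-fold difference, against 0.03 for all genes tested. Of the members, 13 were called and at least 2-fold higher and 0 as much lower, where 18.2% of all genes were higher and 10.6% lower by this measure. At 1.5-fold, 24 were higher and 1 lower, where the shares of all genes were 27.0% and 21.7%. Together the members took 0.654% to 0.697% of counts with DMSO and 1.15% to 1.17% with SCH772984. Their summed level was 7012 ± 285 CPM with DMSO and 10806 ± 89.2 CPM with SCH772984 (SD, n = 3), a ratio of 1.54. PSAP alone made up 40.1% of that rise, and without it the ratio was 1.38. No spike-in RNA is listed, so each change is relative to the other transcripts of the same library. Scaling by library size alone moved the median of all genes from 0.03 to 0.20, and the members' median to 0.67, and then 43 members were called higher and 2 lower, where 45.1% of all genes were higher and 28.3% lower. Without a filter on low counts, the median of the 27313 genes tested was 0.36 and that of the members lay 0.10 above it, against 0.47 above it with the filter. In that fit 36 members were called higher and 4 lower, where 20.4% of all genes were higher and 18.8% lower.

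Of the 37 tested members outside the V-ATPase, 29 rose and 2 fell, with a median log2 fold change of 0.76. Of the 16 V-ATPase genes, 9 rose and 2 fell, with a median of 0.17. This difference between the lists is a description and was not tested. In the plot of fold changes the enzymes spread from below 0 to well above 2 on the log2 scale, whereas no V-ATPase gene reached 1.

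**Figure D2:**
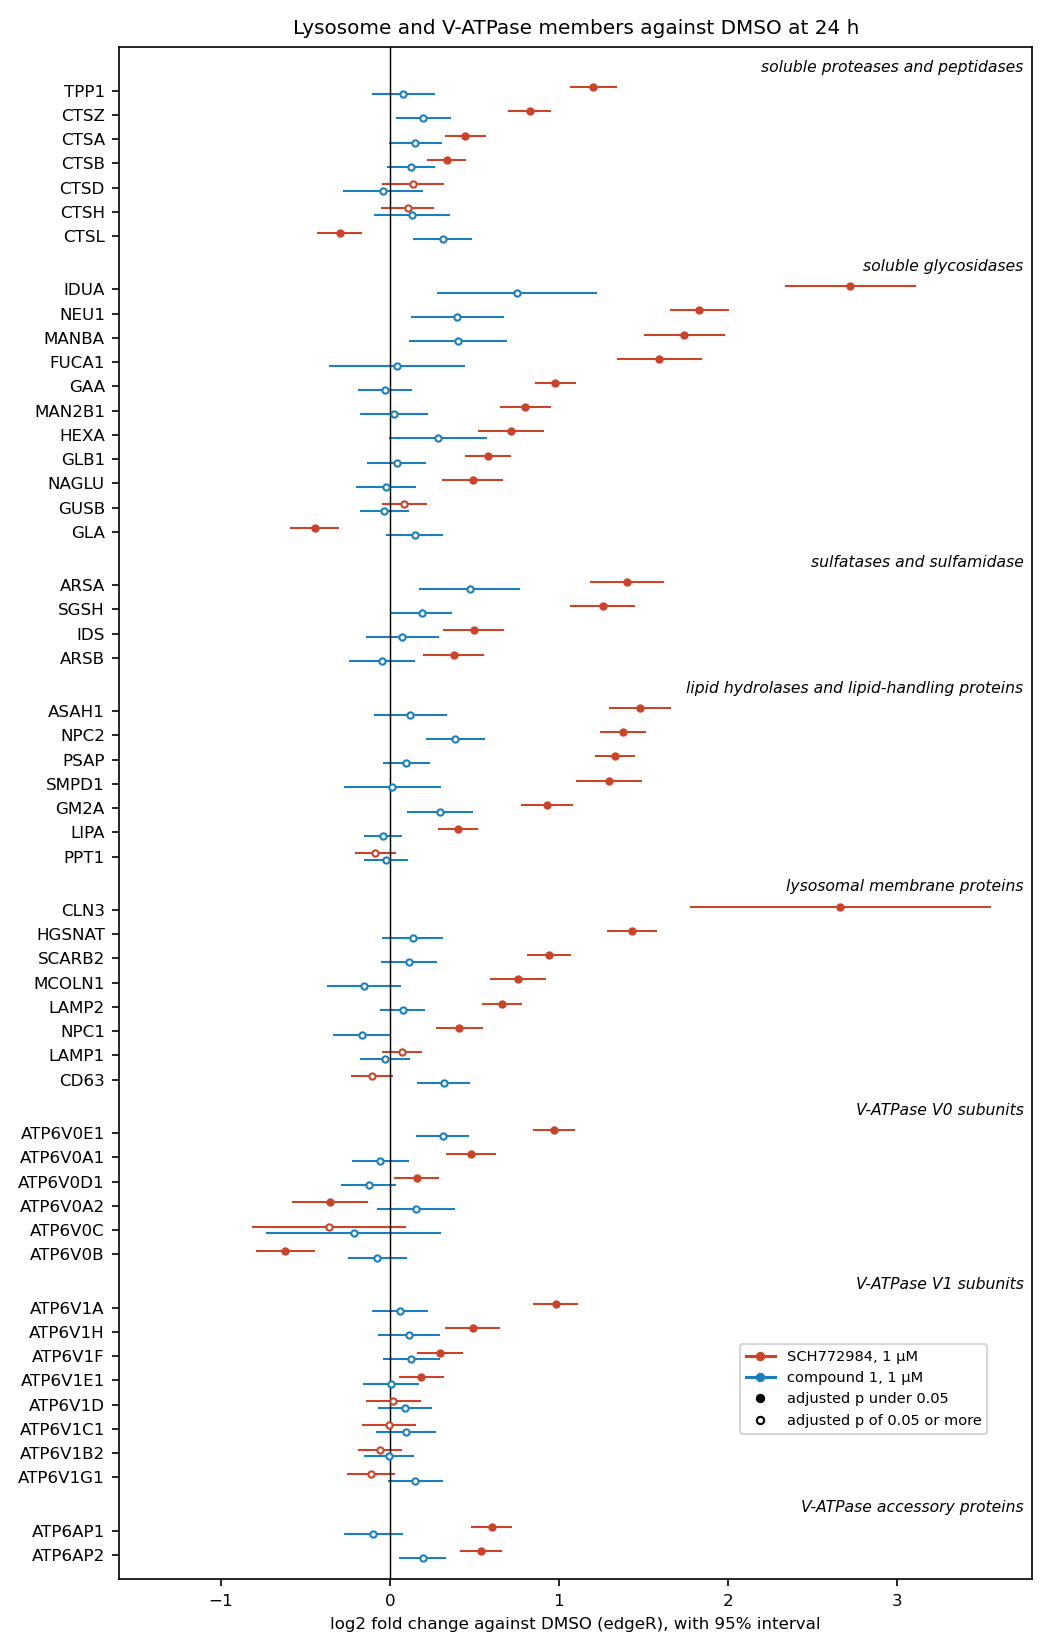
Log2 fold change against DMSO with its 95% interval (horizontal axis) for each tested member, grouped by role, with SCH772984 in red and compound 1 in blue. Filled points passed an adjusted p under 0.05, and 42 of the 53 red points and 0 of the 52 blue points are filled.

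Among the soluble proteases and peptidases, 4 of 7 tested members rose and 1 fell with SCH772984. CTSZ, a carboxypeptidase and the most abundant of the group per kb, had 250.0, 231 and 205 CPM in the DMSO libraries, 291, 241 and 254 CPM with compound 1, and 409.8, 410.1 and 403 CPM with SCH772984. The SCH772984 libraries lay above all others, while those with DMSO and compound 1 overlapped, and with SCH772984 the log2 fold change was 0.83 ± 0.06 (SE, adjusted p = 1.39e-15). TPP1, a tripeptidyl peptidase lost in late infantile Batten disease, rose the most of this group, by 1.20 ± 0.07. CTSA, which protects the sialidase and galactosidase, rose by 0.45 ± 0.06, and CTSB, an abundant cysteine protease, by 0.34 ± 0.06. CTSL, a cysteine endopeptidase, fell by 0.30 on the log2 scale (SE 0.07, adjusted p = 1.49e-04), from between 178 and 213 CPM to between 149 and 166 CPM. Scaled by library size alone, CTSL still had a negative log2 fold change of -0.12 but did not pass (adjusted p = 0.0959). The aspartic protease CTSD (0.14 ± 0.09) and the aminopeptidase CTSH (0.11 ± 0.08) did not pass, although scaling by library size alone called both higher, and asking for at least 10 counts in every library called CTSH higher (0.19, adjusted p = 0.0335). For CTSD the third library with SCH772984, at 274 CPM, stood above the other 2 at 210 and 214 CPM, and without it the log2 fold change was -0.0023. Without SCH772984 replicate 1 CTSD was called higher (0.19, adjusted p = 0.0438). Of its exon bases, 41.7% are shared with another annotated gene, AC068580.4, so its value is uncertain. Within this group, then, CTSZ rose and CTSL fell in the same libraries.

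Of the 11 soluble glycosidases, 9 rose and 1 fell. IDUA, which removes iduronic acid from dermatan and heparan sulfate, showed the largest rise of all members (chr4:986997-1004506, GRCh38). It had 2.35, 2.31 and 2.95 CPM with DMSO, 4.40, 3.96 and 4.46 CPM with compound 1, and 13.8, 15.9 and 20.8 CPM with SCH772984. The 3 groups did not overlap, and with SCH772984 the log2 fold change was 2.73 ± 0.20 (adjusted p = 1.33e-16), or 6.62-fold. These values rest on 21 to 27 counts per DMSO library, and 13.3% of its exon bases are shared with SLC26A1 on the opposite strand. NEU1, the lysosomal sialidase, had 26.0, 26.0 and 21.2 CPM with DMSO, 40.3, 28.8 and 27.5 CPM with compound 1, and 85.1, 85.5 and 91.2 CPM with SCH772984, a log2 fold change of 1.83 ± 0.09 (adjusted p = 6.69e-23). FUCA1, the fucosidase, went from 9.21, 13.9 and 9.72 CPM to 31.2, 35.1 and 33.0 CPM, a log2 fold change of 1.59 ± 0.13. MANBA, the beta-mannosidase, rose by 1.74 ± 0.12. Each of these 4 enzymes was under 30 CPM in every DMSO library.

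The other glycosidases that rose did so by less than 1 on the log2 scale. GAA, the acid alpha-glucosidase that degrades glycogen and the highest of the group per kb, had 271, 243 and 238 CPM with DMSO, 278, 224 and 234 CPM with compound 1, and 479, 484 and 528 CPM with SCH772984, a log2 fold change of 0.98 ± 0.06 (adjusted p = 2.29e-18). The alpha-mannosidase MAN2B1 rose by 0.80 ± 0.08, the hexosaminidase subunit HEXA by 0.72 ± 0.10, the beta-galactosidase GLB1 by 0.58 ± 0.07 and the heparan sulfate glucosaminidase NAGLU by 0.49 ± 0.09. GLA, the alpha-galactosidase deficient in Fabry disease, went the other way. It had 103, 104 and 94.3 CPM with DMSO, 126, 104 and 103 CPM with compound 1, and 69.4, 79.2 and 73.6 CPM with SCH772984. The SCH772984 libraries lay below all others, and GLA fell by 0.45 on the log2 scale (SE 0.07, adjusted p = 6.94e-07).

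GUSB, the beta-glucuronidase, is also the gene to which the study scaled its qPCR values. It had 114, 109 and 106 CPM with DMSO, 113, 105 and 103 CPM with compound 1, and 112, 112 and 125 CPM with SCH772984, and the groups overlapped. The log2 fold change was 0.09 with SCH772984 (95% interval -0.05 to 0.22, adjusted p = 0.259) and -0.03 with compound 1 (95% interval -0.18 to 0.11). Scaled by library size alone, GUSB was called higher with SCH772984, at 0.26 (adjusted p = 7.88e-04), as it was with at least 10 counts in every library (0.17, adjusted p = 0.0276). Its pseudogene GUSBP1 had a median of 118 counts per library against 1051 for GUSB, so reads shared between the copies make the level of GUSB uncertain.

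All 4 members of the sulfatase and sulfamidase group rose. SGSH, the heparan sulfamidase and the highest of the 4 per kb, had 40.7, 39.7 and 40.2 CPM with DMSO, 48.3, 41.7 and 47.2 CPM with compound 1, and 80.9, 92.7 and 115 CPM with SCH772984, a log2 fold change of 1.26 ± 0.10 (adjusted p = 1.55e-11). The SCH772984 libraries were widely spread, yet the lowest of them stood well above the highest DMSO library. ARSA, the arylsulfatase that degrades sulfatide, rose by 1.40 ± 0.11. The iduronate sulfatase IDS rose by 0.50 ± 0.09 and the N-acetylgalactosamine sulfatase ARSB by 0.38 ± 0.09.

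The lipid hydrolases and lipid-handling proteins had the largest median among the role groups with 3 or more genes, 1.30 on the log2 scale, and 6 of 7 rose. PSAP (chr10:71816298-71851375) had 1068, 962 and 949 CPM with DMSO, 1175, 1014 and 996 CPM with compound 1, and 2532, 2471 and 2541 CPM with SCH772984. The SCH772984 libraries lay close together and far above all others, and the log2 fold change was 1.33 ± 0.06 (adjusted p = 8.80e-24). PSAP made up 14.2% of the members' summed CPM with DMSO and 23.3% with SCH772984. ASAH1, the acid ceramidase, rose by 1.48 ± 0.09, NPC2, the soluble carrier of cholesterol, by 1.38 ± 0.07, and SMPD1, the acid sphingomyelinase, by 1.30 ± 0.10. The ganglioside activator GM2A rose by 0.93 ± 0.08 and the cholesteryl ester hydrolase LIPA by 0.40 ± 0.06. PPT1, a thioesterase that removes palmitate from proteins, did not pass (-0.09 ± 0.06). Of the exon bases of PPT1, 23.4% are shared with CAP1 on the opposite strand, which had about as many counts, so its value is uncertain.

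Of the 8 lysosomal membrane proteins 6 rose. CLN3 had 0.409, 0.110 and 0.655 CPM with DMSO, or 4, 1 and 6 counts. It had 1.29, 0.834 and 0.622 CPM with compound 1 and 1.99, 2.78 and 2.88 CPM with SCH772984, or 24, 33 and 43 counts. The log2 fold change with SCH772984 was 2.67 ± 0.45 (adjusted p = 1.37e-06), and it moved between 2.23 and 3.20 when single libraries were left out. CLN3 passed the filter on low counts only through its SCH772984 libraries, so a fall could not have been called. CLN3 is counted among the 6 rises here, the 38 rises of all members and the 13 at least 2-fold higher. Of its exon bases, 25.2% are shared with another protein-coding gene, AC138894.1, so its level is uncertain. HGSNAT, the acetyltransferase of heparan sulfate breakdown, rose by 1.43 ± 0.08 and SCARB2, which carries glucocerebrosidase to the lysosome, by 0.94 ± 0.07. The calcium channel MCOLN1 rose by 0.76 ± 0.08, LAMP2, needed for fusion with autophagosomes, by 0.67 ± 0.06, and the cholesterol transporter NPC1 by 0.41 ± 0.07.

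The 2 membrane proteins highest per kb, CD63 and LAMP1, were not called. CD63, a tetraspanin of late endosomes and the highest of the group per kb, had 210, 204 and 194 CPM with DMSO, 288, 231 and 239 CPM with compound 1, and 192, 191 and 185 CPM with SCH772984. The SCH772984 libraries lay just under the DMSO libraries, with a log2 fold change of -0.10 ± 0.06 (adjusted p = 0.129), which scaling by library size alone turned to 0.07. LAMP1 had a log2 fold change of 0.07 ± 0.06 (95% interval -0.04 to 0.19). Scaled by library size alone it was called higher, at 0.25, and likewise with at least 10 counts in every library (0.15, adjusted p = 0.0183). Of the 11 members that did not pass with SCH772984 10 had a 95% interval within a 1.5-fold difference in both directions, the exception being ATP6V0C.

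In the V0 sector of the pump 3 of 6 subunits rose and 2 fell. Over all genes tested, 37.2% were called higher and 35.5% lower, so rises and falls side by side are not particular to this sector. ATP6V0E1, its smallest subunit and the highest of the V0 genes per kb, had 177, 162 and 167 CPM with DMSO, 237, 198 and 192 CPM with compound 1, and 334, 349 and 312 CPM with SCH772984. No library overlapped between the groups, and with SCH772984 the log2 fold change was 0.97 ± 0.06 (adjusted p = 4.39e-18). ATP6V0B (chr1:43974487-43978295), a proton-carrying ring subunit, went down, with 224, 206 and 183 CPM with DMSO, 221, 179 and 180.4 CPM with compound 1, and 120, 124 and 156 CPM with SCH772984. It fell by 0.62 on the log2 scale (SE 0.09, adjusted p = 5.40e-06), the largest fall of all members. The 2 members that are isoforms of the a subunit, which steers the pump to its membrane, also moved apart. ATP6V0A1 rose by 0.48 ± 0.08, while ATP6V0A2 had 23.9, 26.7 and 30.6 CPM with DMSO, 27.7, 32.6 and 29.9 CPM with compound 1, and 20.3, 24.0 and 19.6 CPM with SCH772984. ATP6V0A2 fell by 0.35 on the log2 scale (SE 0.11, adjusted p = 0.00550), but its groups overlapped, and it did not pass without DMSO replicate 3 (-0.28, adjusted p = 0.0538) or when scaled by library size alone (-0.18, adjusted p = 0.159). ATP6V0D1, which joins the sectors, was called higher by 0.16 ± 0.07 (adjusted p = 0.0338) and missed the threshold under 8 of 13 alternatives. The ring subunit ATP6V0C had 37 to 48 counts with DMSO and 43 to 52 with SCH772984 (-0.36 ± 0.23, not called), and 57.5% of its exon bases are shared with another protein-coding gene, AC093525.2.

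In the V1 sector 4 of 8 subunits rose and 0 fell, where 37.2% of all genes tested were called higher and 35.5% lower. ATP6V1F, the highest per kb, had 87.4, 93.1 and 94.1 CPM with DMSO, 108, 88.3 and 103 CPM with compound 1, and 118, 109.9 and 110.1 CPM with SCH772984, which lay above all others, a log2 fold change of 0.30 ± 0.07 (adjusted p = 2.08e-04). ATP6V1A, the subunit that hydrolyses ATP, rose by 0.98 ± 0.07, while its partner in the catalytic ring, ATP6V1B2, was not called (-0.06 ± 0.07). The regulatory subunit ATP6V1H rose by 0.49 ± 0.08 and the stalk subunit ATP6V1E1 by 0.19 ± 0.07 (adjusted p = 0.0145). The last of these missed the threshold in the absence of DMSO replicate 1 or 2 or of SCH772984 replicate 1, and without a filter on low counts (0.15, adjusted p = 0.0960). ATP6V1C1 (0.00 ± 0.08), ATP6V1D (0.02 ± 0.08) and ATP6V1G1 (-0.11 ± 0.07) did not pass either, although scaling by library size alone called ATP6V1D higher (0.20, adjusted p = 0.0338). Both accessory proteins rose. ATP6AP1, an assembly factor, had 253, 232 and 225 CPM with DMSO, 260.1, 203 and 200.1 CPM with compound 1, and 360.4, 346 and 377 CPM with SCH772984 (0.60 ± 0.06, adjusted p = 9.18e-12), and ATP6AP2, the prorenin receptor, rose by 0.54 ± 0.06. Within the one complex, log2 fold changes thus ranged from -0.62 to 0.98.

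**Figure D3:**
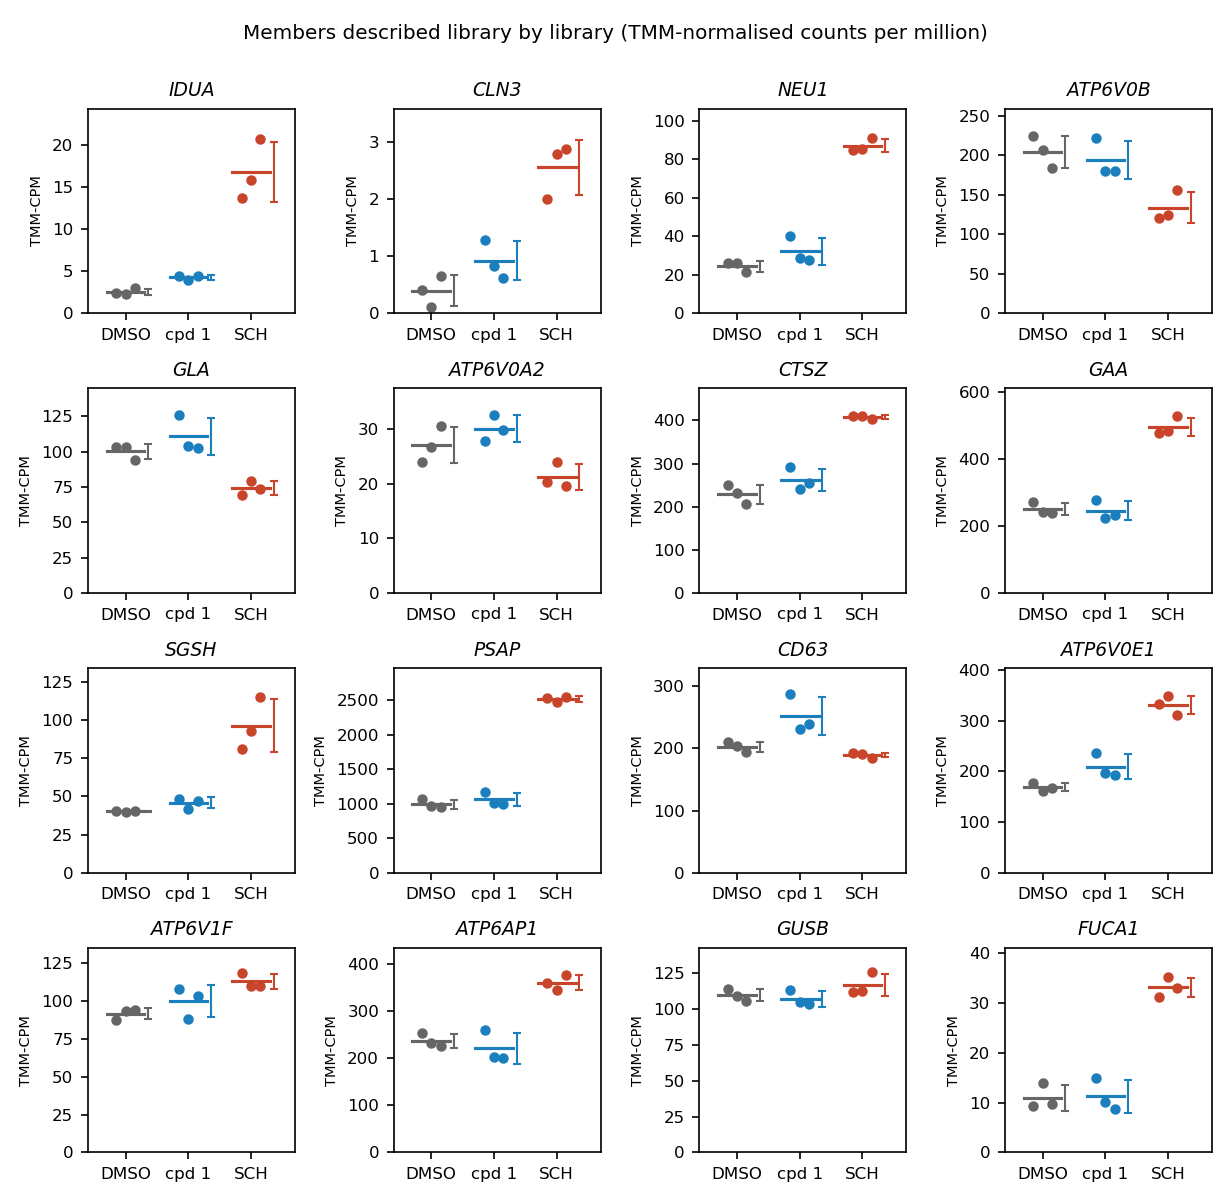
TMM-CPM (vertical axes, from 0) of the 16 members given library by library, with 3 libraries for DMSO (grey), compound 1 (blue, cpd 1) and SCH772984 (red, SCH). Points are libraries, short lines are means and bars are SD, and PSAP with SCH772984 lies between 2471 and 2541 CPM, above all other libraries.

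Summed by role, the lowest SCH772984 library lay above the highest DMSO library in each of the 8 groups. The lipid group went from between 1861 and 2021 CPM to between 3796 and 3847 CPM, and the sulfatase group from between 112 and 114 CPM to between 196 and 231 CPM. The sums of the V0 subunits (between 555 and 596 CPM with DMSO) and of the V1 subunits (between 627 and 653 CPM) moved less, to between 680.4 and 704 CPM and between 731 and 772 CPM. Without PSAP, the ratio of the lipid sum with SCH772984 to that with DMSO was 1.42 rather than 1.99, under the 1.66 of the glycosidases and the 1.88 of the sulfatase group. The V0 sum was higher although 2 of its 6 genes fell.

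**Figure D4:**
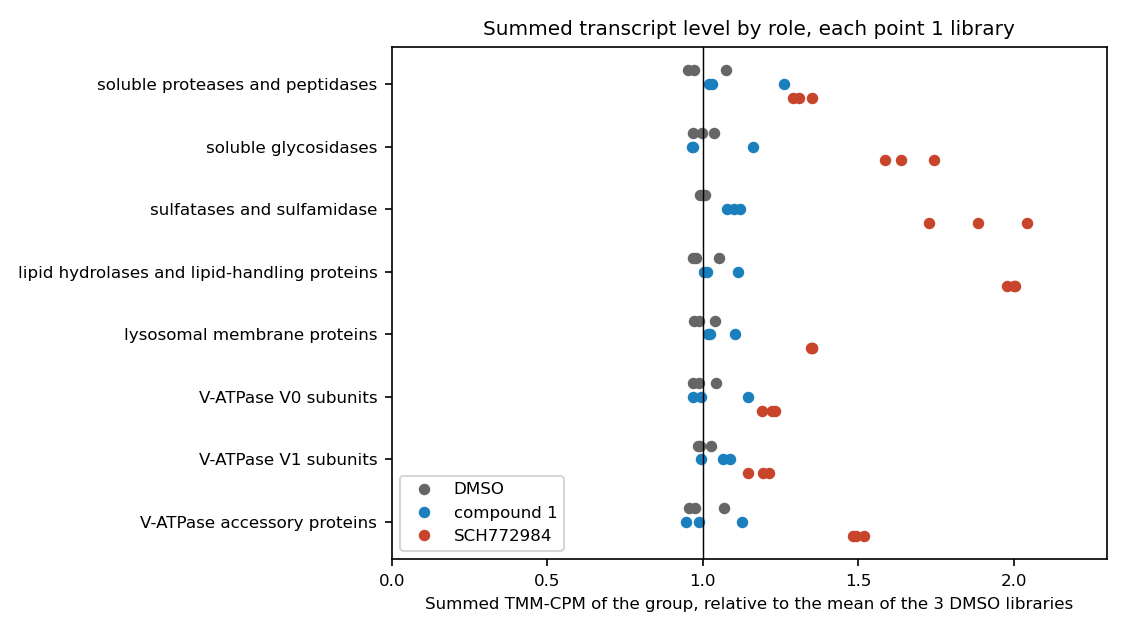
Summed TMM-CPM of each role group divided by the mean of its 3 DMSO libraries (horizontal axis, from 0), with 1 point per library, DMSO in grey, compound 1 in blue and SCH772984 in red. The lipid group, at 1.99 on average with PSAP and 1.42 without it, and the sulfatase group lie farthest to the right with SCH772984, and compound 1 replicate 1 is the rightmost blue point in 7 of 8 groups.

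Promoter windows of 300 bases, 250 before the listed RefSeq start and 50 after it (GRCh38.p14), matched 39 of the 54 members. The others were ARSA, ASAH1, ATP6V0E1, ATP6V1A, ATP6V1B2, ATP6V1C1, ATP6V1H, CTSB, HEXA, HGSNAT, LAMP2, MANBA, NAGLU, PSAP and SGSH. The E-box CACGTG, which reads the same on both strands, was found in 11 of these 39 windows (28.2%) and in 7.28% of all 27305 promoters with a symbol. The longer form TCACGTGA, which contains the E-box, was in 7 members (17.9%) and in 1.01% of all promoters. The related TCATGTGA, searched on both strands and sharing no match with the other motifs, was in 2 members and in 1.04% of all promoters. These matches describe the letters of the windows and are not measured binding sites. The 6 windows below are shown because they pair the E-box with the range of responses, from NEU1, GAA and MCOLN1, which rose, through LAMP1 and ATP6V1G1, which were not called, to ATP6V0B, which fell. They are written 5′ to 3′ on the strand of the gene, with each E-box in capitals. The windows lie at chr6:31862911-31862981 (minus strand) for NEU1, chr17:80101491-80101555 (plus) for GAA, chr19:7522564-7522623 (plus) for MCOLN1, chr13:113297039-113297109 (plus) for LAMP1, chr9:114587679-114587739 (plus) for ATP6V1G1 and chr1:43974880-43974939 (plus) for ATP6V0B, all upstream of the listed RefSeq start.
NEU1: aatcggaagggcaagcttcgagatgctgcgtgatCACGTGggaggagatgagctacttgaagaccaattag
GAA: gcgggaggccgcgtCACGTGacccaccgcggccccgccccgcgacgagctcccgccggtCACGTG
MCOLN1: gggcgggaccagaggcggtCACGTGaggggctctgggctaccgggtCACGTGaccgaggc
LAMP1: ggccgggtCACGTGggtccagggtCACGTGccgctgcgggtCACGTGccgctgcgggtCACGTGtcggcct
ATP6V1G1: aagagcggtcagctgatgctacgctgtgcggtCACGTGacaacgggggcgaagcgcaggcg
ATP6V0B: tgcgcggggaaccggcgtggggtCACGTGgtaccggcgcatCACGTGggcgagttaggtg

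Members with and without an E-box in these windows both included rises and falls. Of the 10 tested members with an E-box, 6 rose and 1, ATP6V0B, fell, with a median log2 fold change of 0.30. Of the 28 tested members without one, 19 rose and 3 fell, with a median of 0.45. LAMP1 held 6 E-boxes, the most of any member, of which 4 are in the window shown, and its log2 fold change was 0.07. NEU1 held 1 and rose by 1.83. This comparison was made on the matched members and is given without a test.

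With compound 1, 0 of the 52 tested members passed an adjusted p under 0.05, with CTSF and CLN3 too low to test. Over all 12849 genes tested, 0.490% were called higher and 0.374% lower. At an unadjusted p under 0.05 in the same edgeR test, 11 members were higher and 0 lower, where 7.35% of all genes were higher and 7.69% lower. The members' median log2 fold change was 0.09, against 0.00 for all genes. It lay between 0.0572 and 0.1056 with single libraries left out, the lowest without compound 1 replicate 1, and without a filter it lay 0.056 above the median of all genes. Their summed level was 7402 ± 558 CPM, 1.06 times that of DMSO, with replicate 1 at 8046 CPM and the others at 7063 and 7095 CPM. The 95% interval lay within a 1.5-fold difference in both directions for 47 of the 52.

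The 11 genes were CTSL, CTSZ, NEU1, IDUA, MANBA, ARSA, GM2A, NPC2, CD63, ATP6V0E1 and ATP6AP2. The lowest adjusted p were those of NPC2 (0.39 ± 0.09, adjusted p = 0.0551), CD63 (0.32 ± 0.08, adjusted p = 0.0724) and ATP6V0E1 (0.31 ± 0.08, adjusted p = 0.0810). For NPC2 the DMSO libraries had 65.6, 66.8 and 64.1 CPM and the compound 1 libraries 94.9, 75.3 and 86.3 CPM, so the groups did not overlap. The largest difference was that of IDUA, 0.75 ± 0.24 on the log2 scale (adjusted p = 0.149). Replicate 1 of compound 1 was the highest of its group for CD63, ATP6V0E1, NPC2, NEU1 and PSAP. Without that library, 5 members were called higher and 3 lower, and over all genes 3.46% were called higher and 6.10% lower. NPC2 (0.31), CD63 (0.22), ATP6V0E1 (0.21), CTSL (0.21) and ATP6AP2 (0.18) were then the higher ones. ATP6AP1 (-0.23), CTSD (-0.23) and ATP6V0D1 (-0.21) were the lower ones. DESeq2 called NPC2, CD63 and ATP6V0E1 higher with all 6 libraries, where 1.10% of the genes it gave an adjusted p were higher and 1.12% lower. With a block for the replicate number 4 members were higher, where 193 of all 12849 genes were higher and 219 lower. Without a filter 4 were also higher, where 0.730% were higher and 0.881% lower. By library size alone 2 were higher (0.662% and 0.195% of all genes), and with all 9 libraries in 1 fit 2 were higher (0.653% and 0.696%). In these fits 0 members were lower.

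SCH772984 was also compared with compound 1 directly, in a fit without DMSO libraries, at the same dose and time. Of 53 tested members, 36 were higher with SCH772984 and 6 lower, where 33.7% of all 13863 genes were higher and 32.6% lower. At 1.5-fold, 24 were higher and 1 lower, where the shares of all genes were 25.5% and 20.9%. All 36 were also called higher against DMSO. Of these 42 calls, 37 held in every alternative fit that gave a value, leaving aside the 1.5-fold minimum. CTSB lost its call under 5 of them (0.15, adjusted p = 0.241 without compound 1 replicate 3), and HEXA, CTSA and ATP6V0D1 lost theirs without compound 1 replicate 3 (0.27, 0.24 and 0.21). The median difference was 0.52 on the log2 scale, against 0.03 for all genes. The 3 largest were those of IDUA (1.98 ± 0.19, adjusted p = 1.05e-08), FUCA1 (1.56 ± 0.15, adjusted p = 1.98e-08) and CLN3 (1.48 ± 0.37, adjusted p = 0.00135). Here too CLN3 passed the filter on low counts only through its SCH772984 libraries. FUCA1 had 14.9, 10.1 and 8.71 CPM with compound 1, which overlapped with DMSO, whereas IDUA lay between the other 2 groups.

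The 6 lower members were CTSL, GLA, ATP6V0B, ATP6V0A2, CD63 and ATP6V1G1. CTSL had 276, 232 and 215 CPM with compound 1, all above the DMSO libraries, and 162, 166 and 149 CPM with SCH772984, all below them. The difference between the inhibitors was -0.60 ± 0.09 (adjusted p = 9.82e-06). CD63 had the same order of groups, and the inhibitors differed by -0.41 ± 0.09 (adjusted p = 3.51e-04). ATP6V1G1, at -0.25 ± 0.09 (adjusted p = 0.0211), did not pass without SCH772984 replicate 2 or 3, when scaled by library size alone (-0.11, adjusted p = 0.264) or with at least 10 counts in every library (-0.18, adjusted p = 0.0937). The comparisons with DMSO share their DMSO libraries, so values with both inhibitors are given side by side and not correlated.

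Other genes of the pathway, taken from lists written for this description, moved in both directions with SCH772984. Of 107 such genes 91 were tested, and 55 rose and 12 fell, with a median log2 fold change of 0.41. These shares stand beside 37.2% higher and 35.5% lower over all genes tested. With compound 1, 0 of 91 passed. Among TFEB, its relatives and their direct regulators, 4 of 7 tested rose. TFEB had 2.05, 2.87 and 1.75 CPM with DMSO and 3.73, 3.87 and 6.63 CPM with SCH772984, a log2 fold change of 1.11 ± 0.28 (adjusted p = 4.82e-04). TFE3 was far more abundant, at 98.3 to 112 CPM with DMSO, and did not pass (0.08 ± 0.07), nor did MITF (-0.29 ± 0.35). FLCN, the folliculin that controls RAG GTPases, rose by 1.20 ± 0.09.

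Of the genes for amino acid sensing at the lysosome, 8 of 12 rose and 2 fell, led by the RAG GTPases RRAGD (1.32 ± 0.11) and RRAGB (1.32 ± 0.14). Of those that sort enzymes to the lysosome, 5 of 14 rose and 2 fell, a share of rises near that of all genes. SUMF1, which activates sulfatases, rose by 1.25 ± 0.12, and GNPTAB, which starts the mannose 6-phosphate tag, by 0.91 ± 0.08. Among the other lysosomal enzymes 16 of 24 rose and 2 fell. Their summed level was between 2259 and 2391 CPM with DMSO and between 2347 and 2492 CPM with SCH772984, and these ranges overlapped. CTSC, the dipeptidyl peptidase that activates serine proteases of granules, had 869, 797 and 820.1 CPM with DMSO and 286, 310.5 and 313 CPM with SCH772984, and fell by 1.46 (SE 0.06). The cathepsin CTSO rose by 3.17 ± 0.27, from between 0.819 and 1.09 CPM, and the nuclease DNASE2 by 1.68 ± 0.08. Of the other lysosomal membrane proteins 14 of 20 rose and 4 fell, with the channel MCOLN3 at 2.43 ± 0.21 and GLMP, a membrane glycoprotein, at 1.51 ± 0.12. Of the other V-ATPase isoforms and assembly factors 8 of 14 rose and 2 fell. TCIRG1, a further a subunit, rose by 1.72 ± 0.19 and ROGDI by 1.59 ± 0.16. TCIRG1 had 44.4, 30.7 and 35.0 CPM with DMSO and 100.2, 121 and 143 CPM with SCH772984, so among the a subunits it rose with ATP6V0A1 while ATP6V0A2 fell.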

How the data were processed

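RNA-seq of 9 MIA PaCa-2 libraries was analysed from the raw counts per gene that the authors deposited, in 1 table of 58735 genes without normalization or filtering. Per the submitters' processing notes, reads were aligned to hg38 with HISAT2 2.0.5 and counted with featureCounts 1.5.0-p3. The strand setting is not given in the sources used here, so genes sharing exons with another gene are uncertain, and 27 of the 54 members share some exon bases with one in GENCODE release 29. The listed gene length was used only for levels per kb.

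Each pair of groups was fitted apart with edgeR 4.0.16 in R 4.3.3 (robust quasi-likelihood test, TMM, filterByExpr with minimum count 10 and minimum total 15). A gene was called at a Benjamini-Hochberg adjusted p under 0.05 over all genes tested, since the study's own adjustment is not stated. Errors are standard errors from the fit unless given as SD. Alternatives were RLE factors, library size alone, no filter, a minimum of 10 counts per library, 1 fit of all 9 libraries, a replicate block, DESeq2 1.42.0, unadjusted p, a 1.5-fold minimum and leaving out each library. In data simulated for SCH772984 against DMSO, 200 of 13834 genes were changed 2-fold and the others left unchanged. Of the 196 changed genes tested, 85.2% were recovered. In the real comparison 37.2% of genes were called higher and 35.5% lower, so this rate need not hold there. Members and gene lists were chosen with earlier results of these data known. Values in every library were given for the 3 largest rises and falls with SCH772984, the highest member per role by CPM per kb, GUSB and the 3 largest differences between inhibitors. From each other list the 2 largest changes were named, and the DMSO and SCH772984 levels were given for a few of them. A few further genes were named after their values were seen. TMEM55A and TMEM55B, on the lists, matched no symbol. Promoter sequences are from RefSeq.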

Additional observations from a re-analysis of the deposited data

How the results depend on the processing

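Of the 42 members called with SCH772984, 38 kept their call and direction under every alternative fit that gave a value, the exceptions being CTSL, ATP6V0A2, ATP6V0D1 and ATP6V1E1. Of the 42 called between the inhibitors, 37 did so, and neither count applies the 1.5-fold minimum. Asking for a 1.5-fold change left 24 higher and 1 lower with SCH772984 against DMSO, and 24 higher and 1 lower against compound 1. Scaling by library size alone left 2 lower members against DMSO, and moved the members' median to 0.67 against DMSO and to 0.66 against compound 1. Asking for at least 10 counts in every library moved the median to 0.57, and leaving out single libraries to between 0.49 and 0.54. With compound 1, between 0 and 5 members were higher and between 0 and 3 lower when single libraries were left out. The 5 and 3 came without compound 1 replicate 1, where 3.46% of all genes were higher and 6.10% lower. By library size alone 2 were higher (0.662% of all genes), and with all 9 libraries in 1 fit 2 (0.653%). Without a filter 4 were higher (0.730%), with DESeq2 3 (1.10%), and at an unadjusted p 11 (7.35%). Same-numbered libraries of different groups correlated between -0.10 and 0.16, and different-numbered ones between -0.15 and 0.21. These values do not show a pairing by replicate number, which was not tested further. With a block for the replicate number, 4 members were higher with compound 1 (CD63, NPC2, CTSL and ATP6V0E1). Over all genes 193 were then higher and 219 lower, against 63 and 48 without the block. With SCH772984, 38 members were higher and 4 lower, as without the block.

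Changes of sign were seen for members near 0 with SCH772984, none of them called in the main fit or in the fit with the changed sign. By library size alone these were ATP6V1B2 (0.12), ATP6V1C1 (0.17), ATP6V1G1 (0.065), CD63 (0.0703) and PPT1 (0.0887). With 10 counts in every library they were ATP6V1B2 (0.0201) and ATP6V1C1 (0.0759), with all libraries in 1 fit ATP6V1C1 (0.0027), and without a filter ATP6V1D (-0.0152). With single libraries left out, ATP6V1C1 ranged from -0.0588 to 0.0803, ATP6V1D from -0.0449 to 0.1115 and CTSD from -0.0023 to 0.1931. The upper value of CTSD, without SCH772984 replicate 1, was called higher. The cause of the changes of sign was not tested. CTSF and CLN3 had few counts with DMSO, and CLN3 gave no value with 10 counts in every library.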
